A study of Mus musculus with 9 samples.

Results

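Floor plate identity genes were followed in mouse neural stem cells (NSCs) differentiated from embryonic stem cells. They were the rows carrying the exact symbols Foxa1, Foxa2, Ferd3l, Spon1, Corin and Lmx1a in the deposited count and FPKM tables, and all 6 were found among 38197 symbols. The wild-type cells, of strain 129, were differentiated in monolayer and received retinoic acid (RA) and SAG, an agonist of the Hedgehog transducer Smo, from 0 to 3 days in differentiation conditions (DDC). NSCs were then isolated with magnetic beads on the surface protein prominin-1 and profiled by polyA-selected RNA-seq at 4.5DDC, 5.5DDC and 6.5DDC, with 3 libraries per time point and 9 in all. The purity of the sort is not given in the sources used here, and the 9 libraries share the cell background, the RA and SAG treatment and the sort, so that only the time point differs by label. Library totals ran from 11066572 to 25506192 counts, the highest being replicate 1 of 5.5DDC. The labels do not say that the replicates were separate cultures, and p-values then measure only the spread between these libraries.

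The floor plate is the group of glia-like cells at the ventral midline of the neural tube. It is induced by Sonic hedgehog (Shh), then makes Shh itself, and secretes cues that steer axons across the midline. Foxa1 and Foxa2 are forkhead transcription factors, and Foxa2 is required for floor plate formation. Ferd3l is a basic helix-loop-helix factor, Spon1 encodes the secreted adhesion protein F-spondin, and Corin encodes a transmembrane serine protease used to mark floor plate cells. Lmx1a, a LIM homeodomain factor, is used by the midbrain floor plate and by the roof plate.

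The label of the cells was checked against markers. Prom1, which encodes the sorted protein, lay between 62.8 and 207 FPKM, and the neural stem cell factor Sox2 between 78.2 and 96.0 FPKM. The defining floor plate gene Shh was present in every library, between 117 and 325 FPKM. Nkx2-2, the marker of the ventral progenitor domain next to the floor plate, lay between 7.28 and 18.8 FPKM. The midbrain genes Otx2 and En1 reached at most 0.214 and 0.128 FPKM, and Pitx3, a gene of midbrain dopaminergic neurons, had 0 counts in every library. Of the other genes on the midbrain list, En2 lay between 0.589 and 0.888 FPKM, Th between 1.46 and 5.43 FPKM and Wnt5a between 5.87 and 26.3 FPKM, and Nr4a2 reached 20.5 FPKM. Genes of the floor plate and of its neighbouring domain were thus present together in each library. In such bulk samples, fewer cells of a type and less RNA per cell cannot be told apart.

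Replicate 1 stood apart from replicates 2 and 3 at every time point. On the second principal component of all tested genes, which held 27.2% of the variance, the replicate 1 libraries lay at 23.9, 54.5 and 49.3, and the other 6 libraries between -44.6 and -3.10. Results are therefore also given within replicate 1, within replicates 2 and 3, and from a fit on replicates 2 and 3.

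All 6 genes are protein coding in GENCODE M21 on GRCm38. Foxa1 (chr12:57540628-57546916) and Foxa2 (chr2:148042877-148046969) lie on the minus strand, with 3 and 4 merged exons. Ferd3l is a gene of 1 exon on the plus strand (chr12:33928425-33929310), and Spon1 (chr7:113765998-114043370, plus strand) has 16. Corin (chr5:72300025-72504473, minus strand) has 24 merged exons and Lmx1a (chr1:167689237-167848741, plus strand) has 9. Exons on the opposite strand cover 32 exonic bases of Ferd3l, from Gm40383, and 147 of Corin, from Gm20647. The strand setting of the counting is not given in the sources used here, so reads from those bases cannot be assigned to a strand. Gm20647 had 0 counts in all 9 libraries, and Gm40383 was not among the symbols of the deposited count table.

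Bases upstream of the start site are shown for the 4 expressed members with an entry in the RefSeq promoter table (GRCm38.p6), since these genes were followed together over time. Entries were found for 5 of the 6 genes, and Spon1 is named only. Both strands were searched for TGTTTAC, a core of forkhead sites, its variant TATTTAC, the Gli site GACCACCCA and the homeodomain core TAATTA, and no matches overlapped. The Foxa1 stretch (chr12:57546122-57546361, minus strand) leaves out the 10 bases nearest the RefSeq start, which GENCODE places in an exon, and lies in an intron of a longer GENCODE transcript that starts 805 bases further upstream. The Foxa2 (chr2:148046970-148047219, minus strand), Ferd3l (chr12:33928175-33928424, plus strand) and Corin (chr5:72504541-72504790, minus strand) stretches are the 250 bases before the RefSeq start, which for Foxa2 is the furthest upstream of 3 starts in the table, and part of that of Ferd3l is exonic for the opposite-strand Gm40383. Each is written 5′ to 3′, and capitals mark a match to a searched motif.
Foxa1: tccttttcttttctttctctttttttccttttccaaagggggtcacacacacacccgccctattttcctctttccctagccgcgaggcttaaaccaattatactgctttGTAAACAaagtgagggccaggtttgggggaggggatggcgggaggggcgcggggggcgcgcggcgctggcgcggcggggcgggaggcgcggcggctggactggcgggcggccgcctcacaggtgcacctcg
Foxa2: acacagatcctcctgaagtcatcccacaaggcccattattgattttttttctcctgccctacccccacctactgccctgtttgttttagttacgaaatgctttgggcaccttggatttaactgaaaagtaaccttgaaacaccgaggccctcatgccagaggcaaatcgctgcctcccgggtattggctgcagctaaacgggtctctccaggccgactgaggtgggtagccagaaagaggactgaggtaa
Ferd3l: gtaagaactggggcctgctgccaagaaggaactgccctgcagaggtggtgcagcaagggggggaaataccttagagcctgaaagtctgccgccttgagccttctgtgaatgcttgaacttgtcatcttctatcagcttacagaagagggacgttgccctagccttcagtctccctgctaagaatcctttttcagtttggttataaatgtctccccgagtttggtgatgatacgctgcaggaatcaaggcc
Corin: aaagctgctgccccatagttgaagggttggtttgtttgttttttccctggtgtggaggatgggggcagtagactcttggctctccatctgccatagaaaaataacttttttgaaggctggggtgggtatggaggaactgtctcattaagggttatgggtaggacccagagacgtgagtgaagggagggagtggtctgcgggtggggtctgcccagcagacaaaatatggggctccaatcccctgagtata

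The Foxa1 stretch held 1 match, GTAAACA, the reverse complement of TGTTTAC, from 141 to 135 bases before the RefSeq start. TGTTTAC was present in 3.17% of the 32851 promoter stretches of 250 bases in the table, TATTTAC in 2.73%, TAATTA in 4.84% and GACCACCCA in 0.225%. The stretches shown for Foxa2, Ferd3l and Corin held none of these letters, which says nothing of sites elsewhere.

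Spon1, the secreted member, had the highest level of the 6 genes in 9 of 9 libraries. At 4.5DDC it measured 239, 124 and 151 FPKM in replicates 1, 2 and 3, at 5.5DDC 561, 351 and 363 FPKM, and at 6.5DDC 491, 472 and 540 FPKM. All 3 libraries of 5.5DDC and of 6.5DDC lay above all 3 of 4.5DDC, whereas the ranges of 5.5DDC and 6.5DDC overlapped. Among all genes of a library, the Spon1 count ranked 17, 60 and 45 at 4.5DDC, 1, 9 and 9 at 5.5DDC, and 3, 4 and 2 at 6.5DDC. It took 0.0965% of all counts in the lowest library and 0.437% in the highest, 5.5DDC replicate 1.

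Corin, the other gene for a cell surface or secreted protein, differed most between replicates among the 5 members that passed the filter on low counts. It measured 66.4, 11.3 and 14.2 FPKM at 4.5DDC, 133, 38.9 and 44.5 FPKM at 5.5DDC, and 194, 40.7 and 54.5 FPKM at 6.5DDC. Replicate 1 was the highest library at each time point, by 5.21, 3.19 and 4.07 times the mean of the other 2 libraries, so that Corin at 4.5DDC in replicate 1 exceeded replicates 2 and 3 at 6.5DDC. For comparison, the same ratio for Spon1 was 1.73, 1.57 and 0.97.

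Ferd3l, the basic helix-loop-helix factor, was higher at each later time point in all 3 replicates. Its levels were 26.4, 14.9 and 17.2 FPKM at 4.5DDC, 64.8, 40.3 and 38.6 FPKM at 5.5DDC, and 104, 58.2 and 54.4 FPKM at 6.5DDC. The 4.5DDC libraries lay below all others, and 5.5DDC replicate 1 lay above replicates 2 and 3 of 6.5DDC. Replicate 1 was 1.64, 1.64 and 1.85 times the mean of the other 2.

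Foxa2 was the second most abundant member in 7 of 9 libraries, and its replicates took different directions from 4.5DDC to 6.5DDC. It measured 85.6, 62.2 and 46.5 FPKM at 4.5DDC, 100.005, 72.9 and 67.5 FPKM at 5.5DDC, and 64.1, 77.4 and 81.2 FPKM at 6.5DDC. All ranges overlapped, and replicate 1 was the highest library at 4.5DDC and 5.5DDC and the lowest at 6.5DDC. Its paralog Foxa1 measured 40.9, 19.3 and 21.6 FPKM at 4.5DDC, 39.9, 31.9 and 33.6 FPKM at 5.5DDC, and 50.6, 32.4 and 31.5 FPKM at 6.5DDC. Foxa1 was highest in replicate 1 throughout, and its ranges overlapped between all time points. Foxa2 stood above Foxa1 in every library, by 1.27 times in 6.5DDC replicate 1 and by 2.01 to 3.23 times in the other 8.

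Lmx1a, the midbrain and roof plate factor, was at the limit of detection. Its counts were 18, 3 and 4 at 4.5DDC, 12, 7 and 0 at 5.5DDC, and 9, 3 and 5 at 6.5DDC, and its level did not exceed 0.252 FPKM. The 0 in 5.5DDC replicate 3 allows up to 0.271 CPM (counts scaled to a common library total), counting error only. Lmx1a was the member removed by the filter on low counts, which kept 14742 genes and 5 of the 6 members. An exact two-sided permutation test of its CPM gave p = 0.7 from 4.5DDC to 6.5DDC, p = 0.7 for the first step and p = 0.9 for the second, where 3 against 3 libraries cannot give p under 0.1. The label floor plate identity therefore rests on the other 5 genes in these cells.

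**Figure D1:**
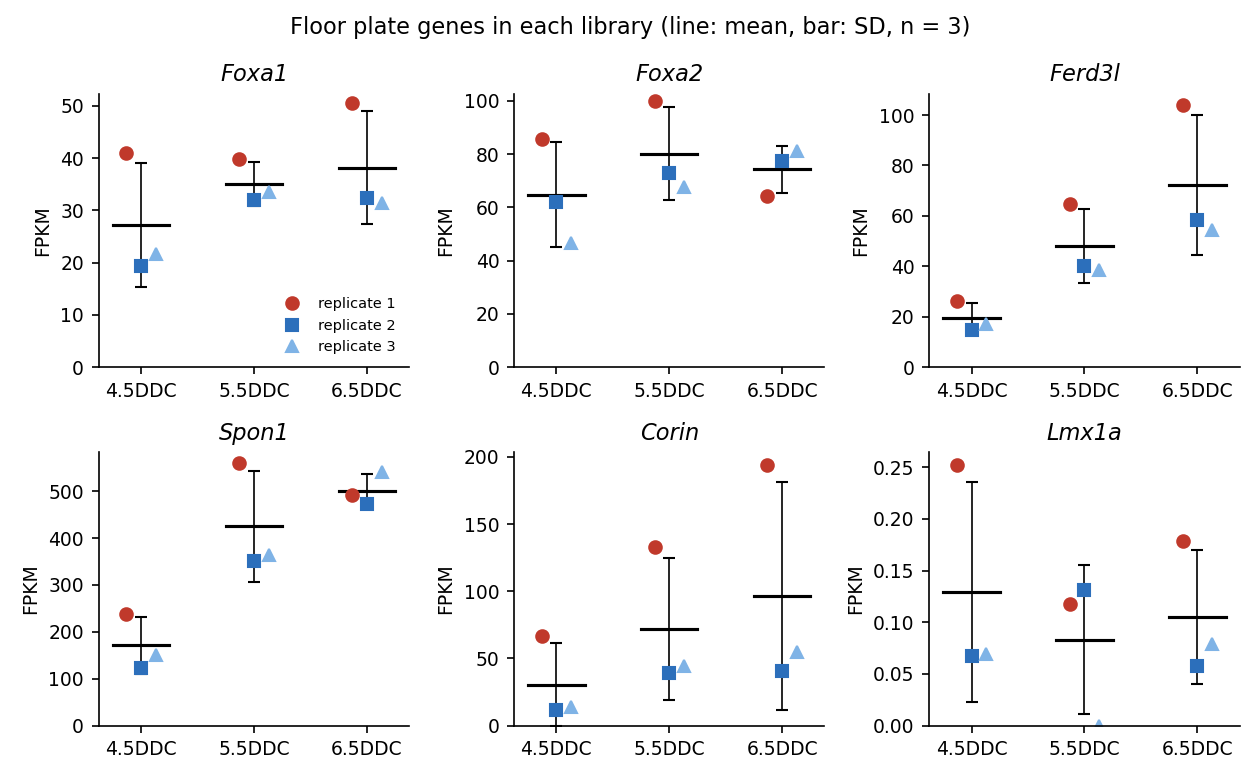
FPKM (y axis, from 0, scaled per gene) of the 6 genes by time point (x axis), with 1 point per library, a line at the mean and a bar of 1 SD (n = 3). Ferd3l and Spon1 at 4.5DDC lie below both later time points, Corin in replicate 1 (circles) lies above replicates 2 and 3 at each time point, and Lmx1a stays at or below 0.252 FPKM.

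The order of the levels on the FPKM scale changed below Spon1. At 4.5DDC Spon1 (171 ± 59.7 FPKM, SD, n = 3) was followed by Foxa2 (64.8 ± 19.7), and then by Corin (30.6 ± 31.0), Foxa1 (27.3 ± 11.9) and Ferd3l (19.5 ± 6.08), whose ranges overlapped. At 6.5DDC Spon1 (501 ± 35.2 FPKM, SD, n = 3) was followed by Corin (96.3 ± 84.6), Foxa2 (74.2 ± 8.96) and Ferd3l (72.3 ± 27.6), which did not differ beyond their spread, and by Foxa1 (38.2 ± 10.8). The place of Corin rested on replicate 1, and Foxa2 came second in replicates 2 and 3. The intermediate levels at 5.5DDC were 425 ± 118 FPKM for Spon1, 80.1 ± 17.4 for Foxa2, 72.1 ± 52.7 for Corin, 47.9 ± 14.7 for Ferd3l and 35.2 ± 4.22 for Foxa1. The FPKM ratio of Spon1 to Foxa2 was 2.79, 1.996 and 3.26 at 4.5DDC, 5.61, 4.81 and 5.38 at 5.5DDC, and 7.66, 6.10 and 6.65 at 6.5DDC. These ratios, chosen after the values were seen, did not overlap between any 2 time points and were higher at each step in all 3 replicates.

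The comparison of 4.5DDC with 6.5DDC asked how far the floor plate genes moved over the whole span. The genes for the secreted F-spondin and the factor Ferd3l rose, Corin had a fold change of similar size that did not pass the test, and the Foxa genes had smaller ones. Ferd3l rose by a log2 fold change of 1.92 ± 0.33 (SE), or 3.77-fold (adjusted p = 0.00563, edgeR quasi-likelihood test with Benjamini-Hochberg adjustment over all genes tested), and was higher in 3 of 3 replicates. Spon1 rose by 1.54 ± 0.26, or 2.91-fold (adjusted p = 0.00515, edgeR), also in 3 of 3. These 2 of the 5 tested members passed the threshold of 0.05 and rose, against 9.20% of all tested genes that rose and 9.52% that fell. The same 2 of 6 members had FPKM ranges that were higher and apart, against 17.9% of all tested genes.

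Corin had a log2 fold change of 1.71 ± 0.84 (adjusted p = 0.178, edgeR), higher in 3 of 3 replicates. The difference was 1.71 within replicate 1 and 1.72 within replicates 2 and 3 on the scaled log2 CPM scale, close to each other although replicate 1 lay higher throughout. Without 4.5DDC replicate 1 the log2 fold change was 2.90, and without 6.5DDC replicate 1 it was 0.51, neither passing the test (adjusted p = 0.0526 and 0.66, edgeR). With the replicate block Corin passed, at 1.71 ± 0.18 (adjusted p = 0.000546, edgeR). That fit called 1913 of 14742 genes as higher, and the numbers did not all pair the libraries over this span. The same-number correlation of deviations was 0.383, -0.04 and -0.215 for replicates 1, 2 and 3. Foxa1 (0.48 ± 0.29, adjusted p = 0.266, edgeR) was higher in 3 of 3 replicates, and passed the test only when 4.5DDC replicate 1 was left out (0.88, adjusted p = 0.0455) among the 9 fits without 1 library. Foxa2 (0.18 ± 0.21, adjusted p = 0.582, edgeR) was lower in replicate 1, by -0.37, and higher in replicates 2 and 3, by 0.50.

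In the fit on replicates 2 and 3, chosen after seeing that replicate 1 stood apart, all 5 tested members passed the threshold and rose, against 16.5% of the 14638 genes tested. Their log2 fold changes were 1.76 for Ferd3l, 1.83 for Spon1, 1.70 for Corin, 0.59 for Foxa1 and 0.49 for Foxa2. With replicate 1 as a term on all 9 libraries, 4 members rose, without Foxa2, against 16.0% of all tested genes.

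**Figure D2:**
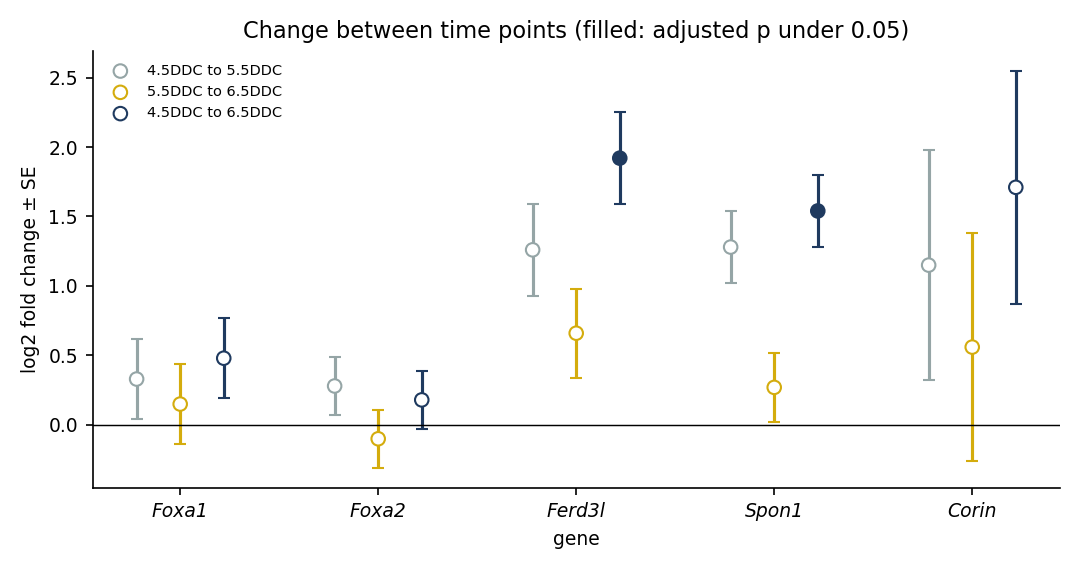
Fitted log2 fold change with its SE (y axis) of the 5 tested genes (x axis) for each pair of time points, filled where the adjusted p from edgeR was under 0.05. Only Ferd3l (1.92) and Spon1 (1.54) over the whole span are filled, and Corin has the widest bars (SE 0.84 over the whole span).

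Over the first step, from 4.5DDC to 5.5DDC, the fitted changes of Spon1, Ferd3l and Corin were the largest, but no member passed the main test. The log2 fold change was 1.28 ± 0.26 for Spon1 (adjusted p = 0.127), 1.26 ± 0.33 for Ferd3l (adjusted p = 0.162), 1.15 ± 0.83 for Corin (adjusted p = 0.552), 0.33 ± 0.29 for Foxa1 (adjusted p = 0.644) and 0.28 ± 0.21 for Foxa2 (adjusted p = 0.578, all edgeR). Spon1, Ferd3l, Corin and Foxa2 were higher in 3 of 3 replicates and Foxa1 in 2 of 3. The value of Corin hung on single libraries, since leaving out each library in turn gave 0.31 to 2.34. Those of Foxa1 (0.12 to 0.73) and Foxa2 (0.09 to 0.51) also moved with single libraries. So 0 of 5 members rose, against 0.0611% of all tested genes, and few genes of any kind passed at this step. Unadjusted p was under 0.05 for 2 members, Spon1 and Ferd3l (0.000604 and 0.00327), against 15.4% of all tested genes, and 2 of 6 members, again Spon1 and Ferd3l, had FPKM ranges that were higher and apart, against 12.1% of all tested genes.

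At this step the deviations from the time point means correlated between same-numbered libraries, at 0.743, 0.386 and 0.452 for replicates 1, 2 and 3. Between replicates 2 and 3 they did so across numbers as well (0.291 and 0.39), so pairing by number was shown for replicate 1 only. The fit with a replicate block gave other calls. It was a single fit on all 9 libraries, with the same replicate terms at every time point, not a paired fit of this step. Its SE at this step therefore also draws on the libraries of the last time point. The numbers did not all pair those libraries with the libraries of the earliest time point. With the block, 3 members rose, against 1.27% of all tested genes. They were Corin (1.34 ± 0.18, adjusted p = 0.0184), Ferd3l (1.26 ± 0.18, adjusted p = 0.0195) and Spon1 (1.29 ± 0.20, adjusted p = 0.0222, all edgeR). The log2 fold change of Corin moved from 1.15 to 1.34 with the block, and its SE from 0.83 to 0.18. Members were also called at this step by DESeq2 (2 members, Spon1 and Ferd3l, against 1.86% of genes), by the fit with replicate 1 as a term (3 members, against 2.52%) and by the fit on replicates 2 and 3 (3 members, against 2.42%).

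The second step, from 5.5DDC to 6.5DDC, gave smaller values. Ferd3l had a log2 fold change of 0.66 ± 0.32 (adjusted p = 0.297) and Corin of 0.56 ± 0.82 (adjusted p = 0.74), both higher in 3 of 3 replicates. Without 6.5DDC replicate 1 the value of Corin turned to -0.64, and without 5.5DDC replicate 1 it was 1.40. Spon1 (0.27 ± 0.25, adjusted p = 0.586), Foxa1 (0.15 ± 0.29, adjusted p = 0.802) and Foxa2 (-0.10 ± 0.21, adjusted p = 0.828, all edgeR) were each higher in 2 of 3. Leaving out each library in turn gave 0.27 to 0.90 for Ferd3l and 0.15 to 0.52 for Spon1. Among the 5 members 0 rose, against 0.0271% of all tested genes, and 0 of 6 had FPKM ranges that were higher and apart, against 10.1%. None had an unadjusted p under 0.05, and 0 members were called in any of 21 other fits, among them DESeq2 and the fit with a replicate block. In the fit on replicates 2 and 3, 0 members rose, against 2.46% of genes.

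Replicate 1 took the opposite direction from replicates 2 and 3 at this step for Spon1 and Foxa2. For Spon1 the difference on the scaled log2 CPM scale was -0.12 within replicate 1 and 0.51 within replicates 2 and 3. Foxa2 gave -0.59 and 0.17, and Foxa1 gave 0.41, 0.07 and -0.12 within replicates 1, 2 and 3. Ferd3l (0.84 and 0.51) and Corin (0.74 and 0.20) were higher in both.

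**Figure D3:**
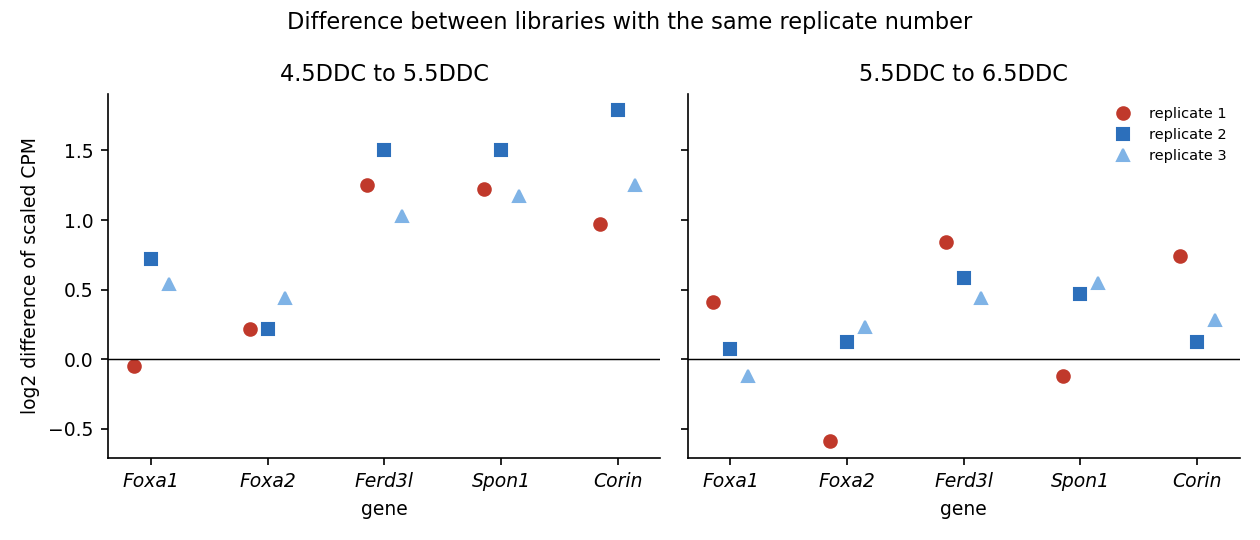
Difference in scaled log2 CPM (y axis) between libraries with the same replicate number, for each of the 5 tested genes (x axis) and each step (panels). At the first step Ferd3l, Spon1 and Corin lie between 0.97 and 1.79 in all 3 replicates, and at the second step replicate 1 (circles) lies below 0 for Spon1 (-0.12) and Foxa2 (-0.59).

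Whether the first step was larger than the second was tested directly. The difference of the steps, second minus first, was -1.01 ± 0.43 for Spon1 (unadjusted p = 0.0418, adjusted p = 0.76, edgeR), and between -0.60 and -0.17 for the other 4 genes, with adjusted p from 0.797 to 0.939. No member passed, and 0 of 14742 genes passed by edgeR or DESeq2, while 701 had an unadjusted p under 0.05 in edgeR. The steps were thus not shown to differ for any member.

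The members varied together between libraries to different degrees. Over the 9 libraries, which share the time course and the replicate numbers, Foxa1 and Corin had a Pearson r of 0.964 on the scaled log2 CPM scale, and Ferd3l and Spon1 of 0.939. The pairs with Foxa2 had the lowest r, from 0.453 to 0.632, against 0.741 to 0.964 for the other pairs. After the mean of each time point was taken out, r was 0.963 for Ferd3l and Corin, 0.950 for Foxa1 and Corin, and 0.698 for Ferd3l and Spon1, while the pairs with Foxa2 ran from 0.297 with Ferd3l to 0.739 with Spon1.

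The genes with the most similar pattern were sought among 12409 genes that reached a mean of 2 FPKM at 1 time point. For Ferd3l they were Cd47 (r = 0.996), Fam183b (0.993) and Entpd1 (0.992), and for Spon1 Ap3m2 (0.994), Itih5 (0.990) and Lrrc48 (0.990), all over 9 libraries. Corin was most like Arhgef28 (0.994), Gfra2 (0.993) and Tgfbr2 (0.993), and Arhgef28 (0.978) also stood near Foxa1, with Clybl (0.985) and Copz2 (0.980). Foxa2 was nearest to Gas6 (0.972), Grcc10 (0.954) and Bdh2 (0.954). Mean levels of Fam183b, a gene of ciliated cells, were 35.4, 96.0 and 198 FPKM at the 3 time points.

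Other floor plate genes were compared as a list of 12, all of them tested. Over the whole span 6 rose and 0 fell, against 9.20% and 9.52% of all tested genes, with a median log2 fold change of 0.94 beside 0.004 for all tested genes, and beside 1.54 for the 5 tested members. Those with the smallest p were Alcam (2.19 ± 0.28, adjusted p = 0.00181), an adhesion molecule, Nrcam (1.61 ± 0.30, adjusted p = 0.00736) and the midline repellent Slit2 (1.09 ± 0.26, adjusted p = 0.0207), followed by Ntn1, which encodes the axon attractant Netrin-1 (0.65 ± 0.18, adjusted p = 0.0321, all edgeR). Shh itself rose by 0.79 ± 0.22 (adjusted p = 0.0321, edgeR). Vtn, with the highest mean FPKM of the list over the 9 libraries, was higher in replicate 1, as Corin was, and was not the highest of the list in replicates 2 and 3 of 4.5DDC and replicate 2 of 6.5DDC. It measured 547, 235 and 196 FPKM at 4.5DDC and 1074, 459 and 643 FPKM at 6.5DDC (1.23 ± 0.45, adjusted p = 0.0843, edgeR). DESeq2 called 7 of the list as higher over the whole span, with Vtn in addition, against 1860 of 14742 genes. At either single step 0 of the 12 passed the test by edgeR, with medians of 0.81 and -0.03. Unadjusted p was under 0.05 for 8 of them at the first step, against 15.4% of all tested genes, and for 3 at the second, Alcam (0.92), Nrcam (0.77) and Slit1 (-0.65), against 18.5%. DESeq2 called 3 as higher at the first step (Ntn1, Slit2 and Alcam), against 1.86% of genes, and 1 at the second (Alcam), against 242 of 14742 genes. With the replicate block, edgeR also called 3 as higher at the first step, against 1.27% of genes, Vtn (adjusted p = 0.0222), Alcam (adjusted p = 0.023) and Slit2 (adjusted p = 0.0442).

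**Figure D4:**
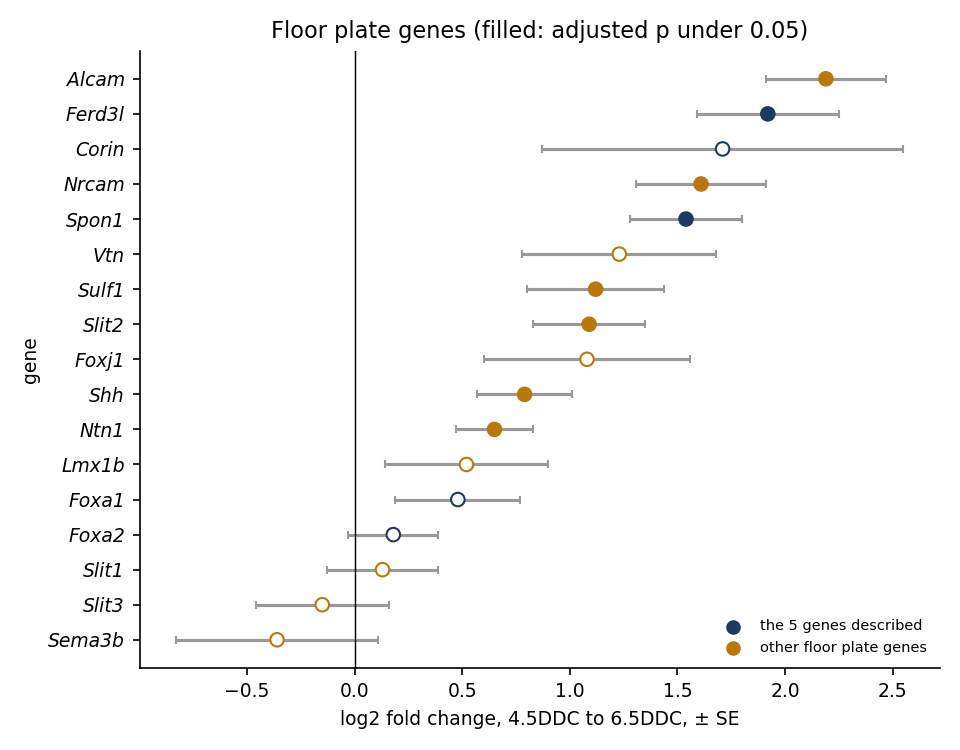
Log2 fold change from 4.5DDC to 6.5DDC with its SE (x axis) of the 5 tested members and the 12 other floor plate genes (y axis), filled where the adjusted p from edgeR was under 0.05. The filled points run from Ntn1 (0.65) to Alcam (2.19), and Foxa1 (0.48) and Foxa2 (0.18) lie among the open points.

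The paralogs of the members were low or did not pass. Foxa3 reached at most 0.053 FPKM and Spon2 at most 0.561 FPKM, and Lmx1b, the relative of Lmx1a, measured 13.5, 7.83 and 4.78 FPKM at 4.5DDC, 28.7, 16.6 and 13.9 FPKM at 5.5DDC and 11.5, 7.63 and 12.9 FPKM at 6.5DDC. All 3 libraries of 5.5DDC lay above all 3 of 4.5DDC, with a log2 fold change of 0.98 ± 0.38 over the first step (unadjusted p = 0.0264, adjusted p = 0.267, edgeR). Of the 2 tested paralogs 0 passed over the whole span by edgeR or DESeq2 and 0 had an unadjusted p under 0.05, with a median log2 fold change of 0.24.

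Within the Hedgehog pathway, the ligand gene Shh rose, whereas of 5 listed genes for a receptor, transducers and the antagonist Hhip, 4 fell and 0 rose over the whole span (median -2.61), against 9.52% of all tested genes that fell, with Gli3 (-2.61 ± 0.28, adjusted p = 0.00107), Gli2 (-3.09 ± 0.52, adjusted p = 0.00499), Ptch1 (-0.99 ± 0.19, adjusted p = 0.00817) and Gli1 (-3.02 ± 0.60, adjusted p = 0.00985, all edgeR) having the smallest p. Hhip did not pass (-0.58 ± 0.34, adjusted p = 0.26, edgeR). Of 5 progenitor factors of the adjacent ventral domains 3 fell and 0 rose (median -1.64). These were Nkx2-9 (-4.59 ± 0.78, adjusted p = 0.00536), Nkx6-1 (-1.14 ± 0.28, adjusted p = 0.022) and Nkx6-2 (-1.64 ± 0.50, adjusted p = 0.0485, all edgeR), and Nkx2-2 had a log2 fold change of 0.16 ± 0.35 (adjusted p = 0.78, edgeR). With the replicate block Nkx6-2 did not pass (adjusted p = 0.055), whereas Olig2 of the same list fell (adjusted p = 0.00248, both edgeR). In the hindbrain serotonergic list of 8, 6 rose and 1 fell (median 2.50), against 9.20% and 9.52% of all tested genes. Those that rose included Slc18a2, the gene for the vesicular monoamine transporter (2.54 ± 0.37, adjusted p = 0.00273, edgeR). Fev and Tph2 also rose, from low levels, and reached at most 2.54 and 1.3 FPKM. The gene that fell was Ddc (-1.53 ± 0.31, adjusted p = 0.0106, edgeR). The serotonin transporter gene Slc6a4 had the smallest p of this list (adjusted p = 0.00151, edgeR), from low levels of at most 0.0954 FPKM at 4.5DDC and 0.671 to 1.45 FPKM at 6.5DDC. In the midbrain and dopaminergic list of 9, 5 were tested, of which Nr4a2 (2.96 ± 0.42, adjusted p = 0.00273) and Wnt5a (1.27 ± 0.25, adjusted p = 0.00944, edgeR) rose and 0 fell (median 0.63). Both are also used outside the midbrain.

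Marker lists of other cells that use the members were read in the same libraries, and their part in the results was not tested unless a value bears on it. The 6 members summed to 458, 232 and 251 FPKM at 4.5DDC, 898, 535 and 547 FPKM at 5.5DDC, and 903, 681 and 762 FPKM at 6.5DDC. Neuron markers (6 measured, Stmn2 with the highest mean over the 9 libraries) summed to 153, 298 and 238 FPKM, 151, 395 and 415 FPKM, and 250, 575 and 626 FPKM at the same time points. In replicate 1 Stmn2 lay below Elavl4 and Map2 at 4.5DDC and 5.5DDC. Replicate 1, with the highest sum of the members, had the lowest sum of neuron markers at each time point, and 1 of the 6, Map2, rose over the whole span (1.65 ± 0.31, adjusted p = 0.00768, edgeR), against 9.20% of all tested genes. Adjacent ventral factors (5 measured, most abundant Nkx6-1) were also lowest in replicate 1 at each time point, at 52.3, 36.3 and 23.1 FPKM in time order. The other libraries gave 97.5 and 54.9 FPKM at 4.5DDC, 62.4 and 60.3 FPKM at 5.5DDC, and 33.0 and 49.1 FPKM at 6.5DDC.

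Neural progenitor markers (5 measured, Nes with the highest mean over the 9 libraries, but below Prom1 at 6.5DDC) summed to between 325 and 464 FPKM in all libraries. Among them Prom1 rose (1.19 ± 0.18, adjusted p = 0.00364), Sox3 fell (-1.80 ± 0.49, adjusted p = 0.033, both edgeR), and Sox2 had a log2 fold change of 0.09 ± 0.12. By step, Prom1, the gene for the protein used in the sort, had a log2 fold change of 0.33 ± 0.18 and then 0.86 ± 0.18 (adjusted p = 0.413 and 0.0885, edgeR), and DESeq2 called it higher at the second step.

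Of the roof plate, which also uses Lmx1a, the defining gene Gdf7 reached at most 0.0245 FPKM, and 6 of 7 markers stayed under 1 FPKM. Its markers summed to 1.34 to 3.01 FPKM, with Bmp6 the highest of them in 8 of 9 libraries, and 0 of 2 tested ones passed by edgeR or DESeq2 over the whole span, or had an unadjusted p under 0.05. The same counts of 0 held for the choroid plexus and endoderm lists. Of all tested genes, 9.20% rose and 9.52% fell by edgeR, and 35.4% had an unadjusted p under 0.05. Choroid plexus markers (5 measured, 2 tested, 0 called) summed to 51.1, 57.1 and 74.7 FPKM in replicate 1 and 13.6 to 19.5 FPKM in the other 6 libraries. Nearly all of it came from Folr1, while Ttr, the defining gene, reached 2.34 FPKM in 6.5DDC replicate 1 and at most 0.472 FPKM elsewhere. Folr1 and Corin were thus both high in replicate 1, and the part of Folr1-expressing cells in the Corin values was not tested.

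Endoderm, where Foxa1 and Foxa2 are also used, had low levels of the defining genes Sox17, at most 0.529 FPKM, and Hnf4a, at most 0.200 FPKM. Markers of the list that are also used by other epithelia were higher, with Krt18 at 21.6 to 58.6 FPKM and highest in replicate 1 at each time point, Krt8 at 8.63 to 15.5 FPKM and Cdh1 at 6.04 to 13.3 FPKM. The list (12 measured, 8 tested, 0 called) summed to 151 to 192 FPKM, mostly from Cxcr4, which neural cells also express. With the replicate block, edgeR called Sox17, Gata4 and Gata6 as higher over the whole span and Krt18 as lower. That fit called 1913 of 14742 genes as higher and 1503 as lower, and the numbers did not all pair the libraries over this span. Gata4 reached 7.62 FPKM in 6.5DDC replicate 1 and at most 2.54 FPKM elsewhere. The notochord is the other midline tissue with Foxa2 and Shh, and both are on its list. T measured 1.74, 0.814 and 1.69 FPKM in replicate 1 in time order and at most 0.245 FPKM in the other libraries. Noto reached at most 0.147 FPKM. Chrd (0.631 to 1.72 FPKM) and Nog (4.12 to 11.8 FPKM) were present in every library. Of its 6 markers 5 were tested and 1 rose over the whole span, which was Shh, against 9.20% of all tested genes.

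**Figure D5:**
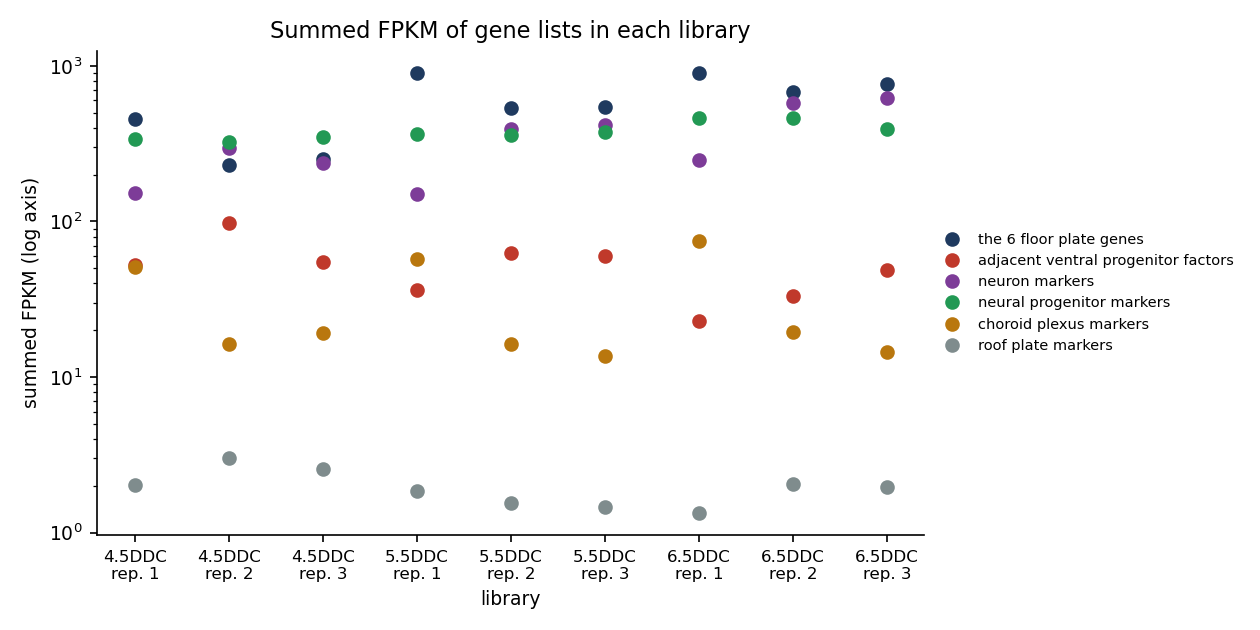
Summed FPKM (y axis, log scale) of 6 gene lists in each of the 9 libraries (x axis). In replicate 1 of each time point the floor plate genes and the choroid plexus list, nearly all of it Folr1, lie above replicates 2 and 3. The neuron markers and adjacent ventral factors of replicate 1 lie below those of replicates 2 and 3.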

How the data were processed

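RNA of prominin-1-sorted NSCs was analysed at 3 time points with 3 libraries each. The times are those of the sample titles, while the source labels give 4, 5 and 6 days. The submitters' processing notes name TopHat2 2.0.4, HTSeq 0.6.1, Cufflinks 2.1.1, limma and the builds GRCm38 and mm10, and the annotation release is not given in the sources used here. The deposited count table holds reads per gene, counted by the authors with htseq-count and not normalized. For 98 of 38197 symbols, none of them a member, the deposited values were not whole, as in estimated counts, although the tests had been chosen for whole counts, so they were rounded first. The authors deposited FPKM from Cufflinks, used here as levels, and log2 values from voom, which matched the counts to within 5e-14 and were not tested.

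Counts were tested with edgeR 4.0.16 in R 4.3.3 (quasi-likelihood test, TMM scaling, filterByExpr, Benjamini-Hochberg over 14742 genes, threshold 0.05), with the time point as factor. edgeR gives no standard error, so the SE printed with its log2 fold changes is the absolute log2 fold change over the square root of the F statistic. limma 3.58.1 and DESeq2 1.42.0 served as alternatives. The exact permutation test came from scipy 1.17.1, and plots were drawn with matplotlib 3.10.9 in Python 3.11.15. Other scalings, filters, units, blocks and left-out libraries were also tried. The replicate block was part of a single fit on all 9 libraries, from which every pair of time points was read. Library totals of 11066572 to 25506192 counts limit genes near 3 counts.

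Same-numbered libraries were checked for pairing by the correlation of their deviations from the time point means. It was 0.743, 0.386 and 0.452 between 4.5DDC and 5.5DDC and 0.454, 0.367 and 0.197 between 5.5DDC and 6.5DDC, above 0 for each number, and these libraries were taken as paired. Between replicates 2 and 3 it was of similar size across numbers, at 0.291 and 0.39 for the first step and 0.225 and 0.405 for the second, and it was negative between replicate 1 and the others. The 3 deviations at a time point sum to 0, so an outlying replicate 1 moves replicates 2 and 3 together. Numbers 2 and 3 were thus not shown to pair.

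The members and gene lists were chosen with earlier results of these data known. Named were the 6 members, for each list up to 4 genes with the smallest p over the whole span and its defining genes, and for each tested member the 3 genes most like it. Other genes were named as well, some for their level and some for a low p at a single step. Some were named because their call changed with the replicate block. Some genes of the lists are not reported here and were left out of their counts, medians and sums.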

Additional observations from a re-analysis of the deposited data

How the results depend on the processing

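Over 21 other fits, Ferd3l and Spon1 kept their rise from 4.5DDC to 6.5DDC and its call in all 21 (log2 fold change 1.52 to 2.16 and 1.34 to 1.84). The direction over the whole span also held in all 21 for Corin (0.51 to 2.90), Foxa1 (0.20 to 0.88) and Foxa2 (0.02 to 0.49), and adjusted p ranged from 0.000169 to 0.66, from 0.0174 to 0.651 and from 0.0386 to 0.968.

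Over the whole span, 2 members were called, but 4 with replicate 1 as a term (Foxa1 at 0.51 and Corin at 1.70 in addition) and 5 on replicates 2 and 3, chosen after seeing the data (Foxa1 0.59, Foxa2 0.49, Corin 1.70). With the replicate block, 3 were called, Corin (1.71) in addition. Of the listed genes it also called Vtn, Foxj1, Stmn2, Dcx, Sox17, Gata4 and Gata6 as higher and Olig2 and Krt18 as lower (adjusted p = 0.000987 to 0.0487, edgeR), and Nkx6-2 lost its call (adjusted p = 0.055, edgeR). That fit called 1913 of 14742 genes as higher and 1503 as lower. For this pair of time points the numbers did not all pair the libraries (0.383, -0.04 and -0.215 for replicates 1, 2 and 3). Leaving out each library in turn gave 0.20 to 0.88 for Foxa1. Within replicate 1 the difference was -0.37 for Foxa2 and 1.10 for Spon1, and within replicates 2 and 3 it was 0.50 for Foxa2.

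Over the first step 0 members were called, but 2 by DESeq2 and 3 each with the replicate block, with replicate 1 as a term and on replicates 2 and 3. All 453 genes called by DESeq2 there compare with 11 by edgeR, and 212 with the block.

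Over the second step, signs turned without a call. On replicates 2 and 3, Foxa1 gave -0.03 and Foxa2 0.17. Leaving out each library in turn gave -0.13 to 0.31 for Foxa1, -0.21 to 0.09 for Foxa2 and -0.64 to 1.40 for Corin. The block changed no other call of a member. The cause of these changes was not tested. With no filter, Lmx1a gave -0.43 over the whole span (adjusted p = 0.806, edgeR), and at most 18 counts limit it.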
